A study of Mus musculus with 9 samples.

Results

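The genes described here are 10 feedback inhibitors of mitogen-activated protein (MAP) kinases, namely Dusp1, Dusp2, Dusp4, Dusp5, Dusp6, Dusp10, Dusp14, Dusp16, Spry1 and Spry2. They were taken by symbol from the array's annotation, and all 10 were measured, each represented by its brightest probe set over the 9 arrays, among 19938 genes. Expression was measured on 1-colour Affymetrix arrays in splenic T cells enriched for CD4, which spent 72 h with beads that carry antibodies against CD3 and CD28. The 9 arrays form 3 groups of 3: CD69-/- cells, CD69-activated cells and wild-type cells, all labelled C57BL/6J. CD69-activated cells were wild-type cells whose CD69 was bound by an antibody from 24 h, itself cross-linked by a second antibody from 48 h, both diluted 1 in 200. CD69 is a membrane protein that lymphocytes display early after activation. The labels describe no culture with a control antibody, so effects of antibody addition and of CD69 ligation cannot be told apart. They call the samples biological replicates but do not tell if these were different mice, so every p-value rests on the spread among these arrays alone, which may be technical.

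Engagement of the T cell receptor activates the MAP kinases ERK, JNK and p38. Dual-specificity phosphatases (DUSPs) remove phosphate from the threonine and the tyrosine of the activation loop and so switch these kinases off, and many are themselves induced by the kinases they inhibit. Sprouty proteins are membrane-associated adaptors that dampen signalling from receptors to Ras and ERK.

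Values are log2 expression values made by robust multi-array averaging (RMA), given per array and never compared between genes. Differences are differences of group means on the log2 scale from limma, fitted over all genes and arrays. A gene was called when its Benjamini-Hochberg adjusted p over all 19938 genes was under 0.05. Cd69, the deleted gene, had 9.65, 9.49 and 9.63 in CD69-/- arrays, 11.80, 11.84 and 11.74 in CD69-activated arrays and 12.03, 12.12 and 12.37 in wild-type arrays. Where its probes lie relative to the deletion is not given in the sources. Xist, transcribed from the inactive X chromosome, averaged 6.01 in CD69-/-, 12.95 in CD69-activated and 12.59 in wild-type arrays, and the Y-linked Eif2s3y averaged 9.78 in CD69-/-, 4.35 in CD69-activated and 4.33 in wild-type arrays. Sex and genotype therefore cannot be told apart in comparisons with CD69-/-, and none of the 10 genes lies on a sex chromosome. Array medians over the 19938 genes ran from 7.67 to 7.73, and precision is limited by there being 3 arrays per group. Over all probe sets, medians were 7.40 to 7.43 in CD69-/-, 7.43 to 7.47 in wild-type and 7.52 to 7.56 in CD69-activated arrays.

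After CD69 activation most of these inhibitors were lower than in wild-type cells, and Spry1 moved most, 2.14-fold. Spry1, Dusp4, Dusp14, Dusp5, Dusp10 and Dusp16 fell and Dusp2 rose, while Dusp1, Dusp6 and Spry2 did not pass. In CD69-/- cells Dusp10, Dusp6 and Dusp5 rose and Dusp16 fell, all by less than 1.5-fold. Limma called 7 of 10 in CD69-activated against wild-type cells, beside 23.8% of all genes, and 4 of 10 in CD69-/- against wild-type cells, beside 15.1% of all genes. Both comparisons share the wild-type arrays. The values by array are plotted next.

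**Figure D1:**
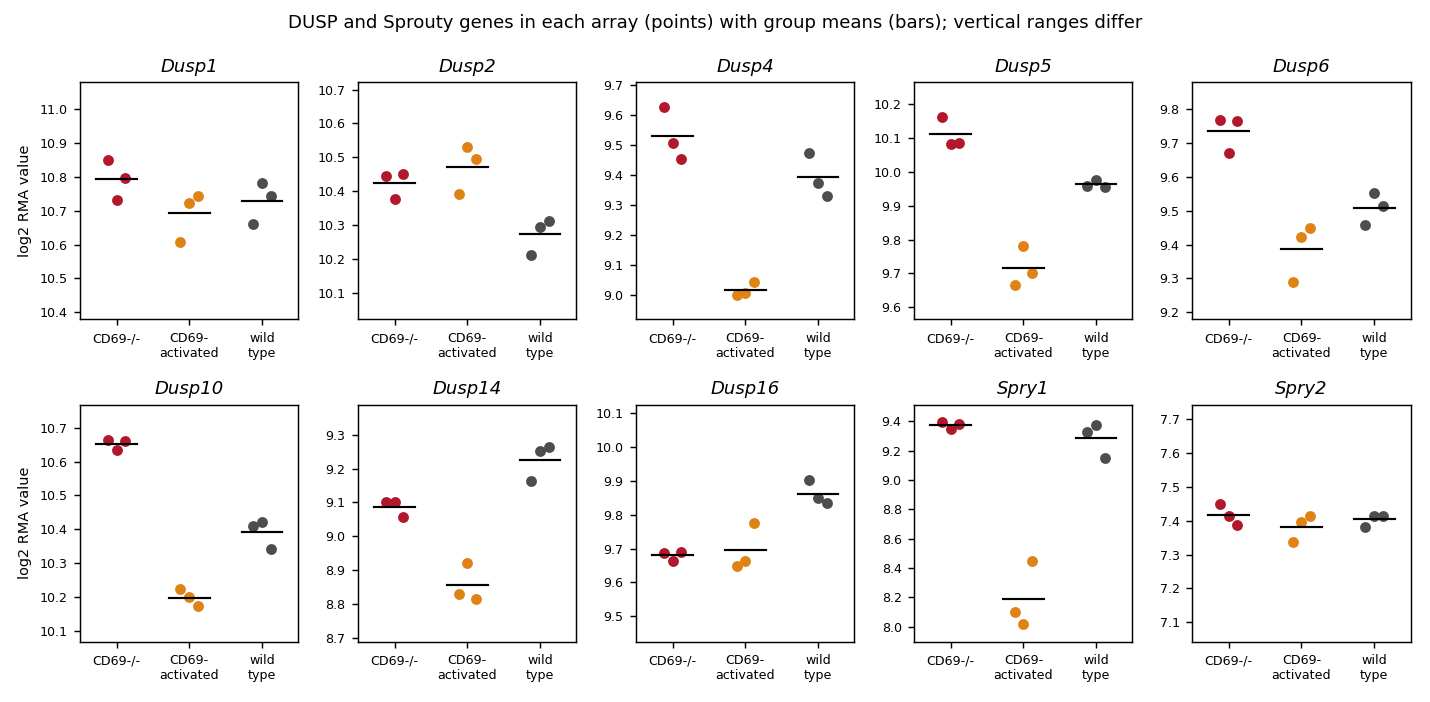
Log2 RMA value (vertical axis, with a different range in each panel) of the 10 DUSP and Sprouty genes in CD69-/-, CD69-activated and wild-type cells; points are single arrays and bars group means. The Spry1 points of CD69-activated cells lie between 8.02 and 8.45, below all 6 other arrays, while the Dusp1 and Spry2 points of the groups overlap.

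The 250 bases before the annotated start of transcription are shown for 3 of these genes, because the genes moved differently and the windows differ in the elements found. They come from a table of RefSeq sequences on build GRCm38.p6, in which 9 of the 10 genes were matched, and the window of Dusp4 was not analysed here. The cyclic AMP response element (CRE, TGACGTCA), its shorter core (TGACG, which the full element holds on both strands), the AP-1 element (TGANTCA) and the CArG box bound by serum response factor were searched on both strands. Capitals mark CRE cores and CArG boxes. Spry1, the gene that moved most, is at chr3:37639697-37639946 on the plus strand. Dusp5, which moved in opposite directions in the comparisons with wild type, is at chr19:53528895-53529144 on the plus strand. Dusp1, which passed in neither, is at chr17:26508473-26508722 on the minus strand.
Spry1: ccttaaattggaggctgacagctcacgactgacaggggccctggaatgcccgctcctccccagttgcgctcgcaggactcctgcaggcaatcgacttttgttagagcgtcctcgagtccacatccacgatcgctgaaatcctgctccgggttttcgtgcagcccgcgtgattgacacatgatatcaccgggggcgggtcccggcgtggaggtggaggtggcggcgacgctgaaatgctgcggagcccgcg
Dusp5: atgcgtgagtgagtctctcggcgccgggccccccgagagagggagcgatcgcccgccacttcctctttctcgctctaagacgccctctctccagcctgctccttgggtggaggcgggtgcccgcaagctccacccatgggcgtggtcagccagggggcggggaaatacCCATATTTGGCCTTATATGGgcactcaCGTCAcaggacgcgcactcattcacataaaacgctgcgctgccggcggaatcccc
Dusp1: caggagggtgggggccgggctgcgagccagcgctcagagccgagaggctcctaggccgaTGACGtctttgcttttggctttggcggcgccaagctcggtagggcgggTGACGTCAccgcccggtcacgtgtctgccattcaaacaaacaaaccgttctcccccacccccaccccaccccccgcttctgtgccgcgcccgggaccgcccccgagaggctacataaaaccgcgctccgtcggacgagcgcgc
The Spry1 window held none of these 4 motifs. The Dusp5 window held 2 CArG boxes side by side, with first bases 82 and 72 bases before the start, and 1 CRE core at 55 bases. The Dusp1 window held the full CRE with its first base 143 bases before the start, and a further core at 191 bases. Of 32851 windows of this length 1.47% held a CArG box, 1.55% the full CRE, 17.8% a CRE core and 6.75% an AP-1 element. Among the 9 genes with sequence the CArG box was found only for Dusp5, the full CRE only for Dusp1 and a core for Dusp1, Dusp5 and Dusp16. None held the AP-1 element. Also searched, and not marked above, were the EGR element (GCGNGGGCG), the E-box (CACGTG) and TATAAA. The EGR element was found for Dusp2 and Dusp16, the E-box for Dusp1 and Dusp2, and TATAAA for none of these genes. Of all windows 4.70% held the EGR element, 6.02% the E-box and 12.4% TATAAA. In the windows of the 9 genes 56.4% to 70.4% of bases were G or C, against a median of 52.4% over all windows. The shares over all windows are not matched for this. A match of letters is no evidence of binding.

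Spry1, a Sprouty adaptor that restrains Ras and ERK signalling, fell furthest of the 10 genes after CD69 activation. It had 8.10, 8.02 and 8.45 in CD69-activated arrays and 9.33, 9.37 and 9.15 in wild-type arrays (difference -1.10, SE 0.096, adjusted p = 1.92e-05, n = 3 per group). Every CD69-activated array lay below every wild-type array, and replicate 3 was the highest of the CD69-activated arrays. Leaving out each array in turn gave differences between -1.23 and -1.01. In CD69-/- arrays Spry1 had 9.39, 9.35 and 9.38, which overlap wild type, with a difference of 0.090 (95% confidence interval -0.12 to 0.30, adjusted p = 0.608). Its interval excludes a fall in CD69-/- cells of the size seen after activation.

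Spry2, the other Sprouty measured as a member, differed from wild type by less than the spread between arrays. Its values were 7.45, 7.42 and 7.39 in CD69-/- arrays, 7.34, 7.40 and 7.42 in CD69-activated arrays and 7.38, 7.42 and 7.42 in wild-type arrays. Its difference was 0.012 in CD69-/- cells (95% confidence interval -0.068 to 0.092) and -0.022 in CD69-activated cells (-0.10 to 0.058), and the sign turned in each comparison when 1 array was left out. To the deposited precision, 4 of its 9 arrays held the same value, and 51.5% of all genes had a value shared by at least 2 arrays.

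Dusp5 and Dusp6 encode phosphatases directed mainly at ERK, Dusp5 in the nucleus and Dusp6 in the cytoplasm. Dusp5 had 9.67, 9.78 and 9.70 in CD69-activated arrays against 9.96, 9.98 and 9.95 in wild-type arrays (difference -0.25, SE 0.041, adjusted p = 0.00124). In CD69-/- arrays it had 10.16, 10.08 and 10.09 (difference 0.15, SE 0.041, adjusted p = 0.0319). The 3 groups did not overlap, with CD69-/- highest and CD69-activated lowest. The rise in CD69-/- cells was close to the threshold: its adjusted p lay between 0.0539 and 0.123 when any 1 of the 6 CD69-/- and wild-type arrays was left out, and was 0.0863 after cyclic loess scaling.

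Dusp6 had 9.77, 9.67 and 9.77 in CD69-/- arrays and 9.46, 9.55 and 9.52 in wild-type arrays (difference 0.23, SE 0.050, adjusted p = 0.0100). It rose 1.17-fold, with every CD69-/- array above every wild-type array. In CD69-activated arrays it had 9.29, 9.42 and 9.45, again without overlap with wild type, but the difference of -0.12 did not pass (adjusted p = 0.106). Groups that do not overlap occurred for 33.2% of all genes in CD69-/- against wild-type cells and for 36% in CD69-activated against wild-type cells, and for 6 and 8 of the 10 genes described here.

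Dusp1, Dusp2 and Dusp4 encode inducible nuclear phosphatases, and each behaved differently. Dusp4, which acts on ERK and JNK, fell 1.30-fold after CD69 activation, with 8.9996, 9.006 and 9.044 in CD69-activated arrays against 9.47, 9.37 and 9.33 in wild-type arrays (difference -0.38, SE 0.052, adjusted p = 0.000378). The groups were far apart relative to the spread within each. In CD69-/- arrays Dusp4 had 9.63, 9.51 and 9.46, which overlap wild type (difference 0.14, adjusted p = 0.110). With each array centred on its median, that difference was 0.17 and passed (adjusted p = 0.0394). It passed in no other alternative, and was 0.099 after cyclic loess scaling (adjusted p = 0.234).

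Dusp2, known as PAC1 and abundant in lymphocytes, was the one gene of the 10 that rose after CD69 activation. It had 10.39, 10.53 and 10.50 in CD69-activated arrays, 10.45, 10.38 and 10.45 in CD69-/- arrays and 10.21, 10.29 and 10.31 in wild-type arrays. Every array of CD69-activated and CD69-/- cells lay above every wild-type array. The difference was 0.20 in CD69-activated cells (SE 0.047, adjusted p = 0.00963). In CD69-/- cells it was 0.15 and did not pass (adjusted p = 0.0515). That value passed without CD69-activated replicate 1 (0.0278) or 2 (0.0474), which enter only the shared spread, and with the arrays centred (0.0193). It did not pass after cyclic loess scaling (0.120) or without any single CD69-/- or wild-type array (0.0595 to 0.167).

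Dusp1, an immediate early gene whose product acts on p38 and JNK, showed no difference that passed. It had 10.85, 10.73 and 10.80 in CD69-/- arrays, 10.61, 10.72 and 10.74 in CD69-activated arrays and 10.66, 10.78 and 10.74 in wild-type arrays, and all 3 groups overlapped pairwise. The 95% confidence interval was -0.047 to 0.17 in CD69-/- cells and -0.15 to 0.074 in CD69-activated cells, so changes of 1.5-fold lie outside both.

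Dusp10 and Dusp16 encode phosphatases directed at p38 and JNK. Dusp10, or MKP-5, showed the largest difference of the 10 genes in CD69-/- cells, with 10.66, 10.63 and 10.66 in CD69-/- arrays against 10.41, 10.42 and 10.34 in wild-type arrays (difference 0.26, SE 0.036, adjusted p = 0.000478). After CD69 activation it had 10.22, 10.20 and 10.17, below all wild-type arrays (difference -0.19, SE 0.036, adjusted p = 0.00262). The groups were separate in both comparisons, and both calls held in all 19 alternatives without a minimum fold.

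Dusp16, or MKP-7, was lower than wild type in both other groups. It had 9.69, 9.66 and 9.69 in CD69-/- arrays, 9.65, 9.66 and 9.77 in CD69-activated arrays and 9.90, 9.85 and 9.83 in wild-type arrays. Wild-type arrays were the highest throughout. The difference was -0.18 in CD69-/- cells (SE 0.041, adjusted p = 0.0119) and -0.17 in CD69-activated cells (SE 0.041, adjusted p = 0.0137). Both calls were lost without wild-type replicate 1, with adjusted p = 0.0506 and 0.0568. Dusp16 lies on chromosome 6, as Cd69 does, with 81 protein-coding genes annotated between them, and of the 61 measured 7 rose and 9 fell in CD69-/- cells, beside 15.1% of all genes called.

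Dusp14 encodes a small phosphatase without the kinase-binding domain of the larger members and is known as an inhibitor of T cell receptor signalling. It fell 1.29-fold after CD69 activation, with 8.83, 8.92 and 8.81 in CD69-activated arrays against 9.16, 9.25 and 9.26 in wild-type arrays (difference -0.37, SE 0.043, adjusted p = 0.000121). In CD69-/- arrays it had 9.10, 9.10 and 9.06, also below every wild-type array. That difference of -0.14 did not pass (adjusted p = 0.0513). It passed at adjusted p = 0.0244 after cyclic loess scaling, 0.0338 without wild-type replicate 1 and 0.0367 without CD69-activated replicate 2. With the arrays centred it was -0.11 and did not pass (adjusted p = 0.144). Nor did it pass in any other alternative, with adjusted p between 0.0989 and 0.169 without any other single CD69-/- or wild-type array.

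**Figure D2:**
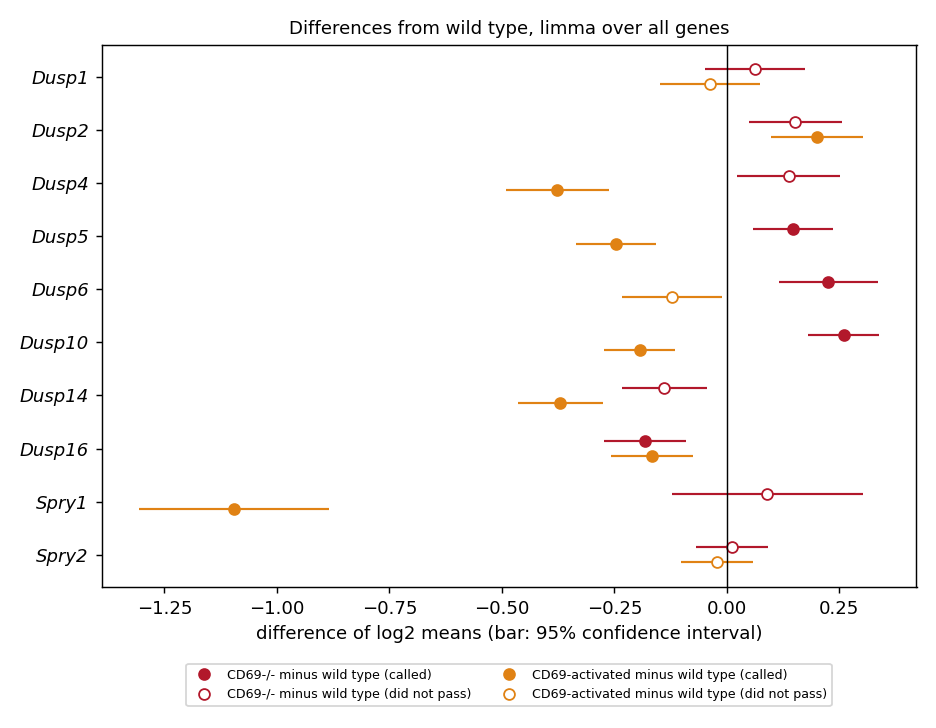
Difference of log2 means (horizontal axis) for each gene in CD69-/- minus wild-type cells and CD69-activated minus wild-type cells; bars are 95% confidence intervals, filled points passed the adjusted p threshold and open points did not. Spry1 in CD69-activated cells lies at -1.10, and the differences of Dusp5 and Dusp10 lie on opposite sides of 0 and passed in both comparisons.

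As a group the 10 genes had a median difference of -0.18 in CD69-activated cells, beside 0.017 over all genes, with 6 lower and 1 higher. In CD69-/- cells their median was 0.11, beside -0.0091 over all genes, with 3 higher and 1 lower. Calls in 1 direction made up 13.7% of all genes for lower and 10.1% for higher after activation, and 8.36% for higher and 6.78% for lower in CD69-/- cells. With the arrays centred on their medians, all genes split into 2555 higher and 1071 lower in CD69-/- cells, against 1667 and 1351 as deposited. With a minimum change of 1.5-fold added to the threshold, Spry1 after activation was the one gene of the 10 left, beside 1.58% of all genes, and none was left in CD69-/- cells, beside 1.15%. The median of the 10 genes kept its sign under both scaling alternatives, at -0.17 with centred arrays and -0.14 after cyclic loess in CD69-activated cells, and at 0.15 and 0.079 in CD69-/- cells.

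Set against CD69-/- cells directly, CD69-activated cells had 6 of the 10 genes lower and none higher, beside 42.6% of all genes called, 21% lower and 21.6% higher. With the arrays centred on their medians, 4762 genes were lower and 3334 higher, against 4187 and 4314 as deposited, and the same 6 of the 10 genes passed. This comparison uses the same arrays as the other two. Spry1 differed by -1.19 (SE 0.096, adjusted p = 3.37e-06), Dusp4 by -0.51, Dusp10 by -0.45, Dusp5 by -0.39, Dusp6 by -0.35 and Dusp14 by -0.23. Spry1 alone passed with a minimum of 1.5-fold, beside 4.02% of all genes. The arrays of both groups were separate for all 6 of these genes, as for 51.5% of all genes in either direction. Dusp1 (-0.10), Dusp2 (0.048), Dusp16 (0.016) and Spry2 (-0.034) did not pass. After cyclic loess scaling Dusp2 was higher by 0.13 and passed (adjusted p = 0.0369).

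Relatives outside the 10 genes were called at shares that are read against 23.8% of all genes after activation and 15.1% in CD69-/- cells. Of 20 other DUSPs and related phosphatases, 1 rose and 2 fell in CD69-activated cells (median 0.012) and 1 rose and 2 fell in CD69-/- cells (median -0.021), 15% in either comparison. Dusp19, known to act on JNK signalling, was at -0.39 in CD69-activated cells (adjusted p = 0.000211) and at 0.26 in CD69-/- cells (adjusted p = 0.00383). Dusp3 fell by 0.28 and Dusp8 by 0.19 in CD69-/- cells. The slingshot phosphatase Ssh3, which acts on cofilin, was at 0.22 and Dusp28 at -0.17 in CD69-activated cells. Of 5 further Sprouty and Spred genes, 2 fell in CD69-activated cells (40%) and 1 rose in CD69-/- cells (20%).

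The Spred genes encode membrane-bound inhibitors of Ras and ERK activation related to Sprouty. Spred1 had 8.21, 8.03 and 8.15 in CD69-activated arrays against 8.71, 8.55 and 8.55 in wild-type arrays (difference -0.47, SE 0.062, adjusted p = 0.000284), with no overlap. Spred2 had 9.49, 9.44 and 9.43 in CD69-/- arrays, 8.78, 8.92 and 8.97 in CD69-activated arrays and 9.13, 9.13 and 9.07 in wild-type arrays. It rose by 0.34 in CD69-/- cells (adjusted p = 0.000697) and fell by 0.22 in CD69-activated cells (adjusted p = 0.00816). Spry4 was at -0.13 in CD69-activated cells and did not pass (adjusted p = 0.168).

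The kinases that these inhibitors act on, and regulators of those kinases, form a pair of lists. Of 13 measured genes of the RAF, MEK and ERK module, 2 rose and 1 fell in CD69-activated cells (23.1%) and 1 rose in CD69-/- cells (7.69%), so neither share exceeded that of all genes. Map2k5, encoding MEK5, was at 0.33 (adjusted p = 0.000302), Braf at 0.21 and Map2k1, encoding MEK1, at -0.17 in CD69-activated cells, and the scaffold gene Ksr1 was at 0.37 in CD69-/- cells. Of 26 JNK and p38 module genes, 7 rose and 3 fell in CD69-activated cells (38.5%) and 5 rose and 4 fell in CD69-/- cells (34.6%). Gadd45g, an inducible activator of the p38 and JNK pathway, fell by 0.95 in CD69-activated cells (adjusted p = 3.55e-07). The JNK scaffold gene Mapk8ip3 was at 0.38 and Map3k5, encoding the stress kinase ASK1, at 0.34 in CD69-activated cells. Mapk12, encoding p38 gamma, was at 0.57 in CD69-/- and 0.31 in CD69-activated cells.

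Of 8 kinases downstream of MAP kinases 2 fell in CD69-activated cells (25%), and 2 rose and 1 fell in CD69-/- cells (37.5%). Mapkapk3, a p38 substrate kinase, was at -0.21 in CD69-activated and 0.40 in CD69-/- cells. Among 23 genes of Ras, its exchange factors and GTPase-activating proteins, 4 rose and 4 fell in CD69-activated cells and 3 rose and 5 fell in CD69-/- cells, 34.8% in either comparison. Rasgrp2, an exchange factor for Rap and Ras, was at -0.69 and Rasgrp3, prominent in B cells, at -0.43 in CD69-/- cells. Of 20 other phosphatases and proximal inhibitors 3 rose and 4 fell in CD69-activated cells (35%), and 7 rose and 2 fell in CD69-/- cells (45%). Sla2 (0.54), Ubash3a (0.47) and Dok2 (0.43), all inhibitors of T cell receptor signalling, led the rises in CD69-/- cells.

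A list of genes tied to ERK signalling, many of them induced through ERK, was lower in part after CD69 activation. It also holds genes that are not typical ERK-induced genes, such as Bcl2l11, Elk1, Elk4 and Srf. Its counts are therefore no measure of ERK activity. Of its 35 genes 11 fell and 2 rose in CD69-activated cells (median -0.077), and 10 rose and 3 fell in CD69-/- cells (median 0.040). Rgs16, a regulator of G protein signalling, was at -1.98, and the orphan nuclear receptor genes Nr4a2 and Nr4a3 were at -1.85 and -1.20 in CD69-activated cells. Egr2, a zinc finger factor of the T cell receptor response, was at -1.09. In CD69-/- cells Fosl2 was at 0.50, Rgs16 at 0.46, Junb at 0.31 and Fos at 0.28. The share of genes called, in either direction, was 37.1% in both comparisons, beside 23.8% of all genes in CD69-activated cells and 15.1% in CD69-/- cells.

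**Figure D3:**
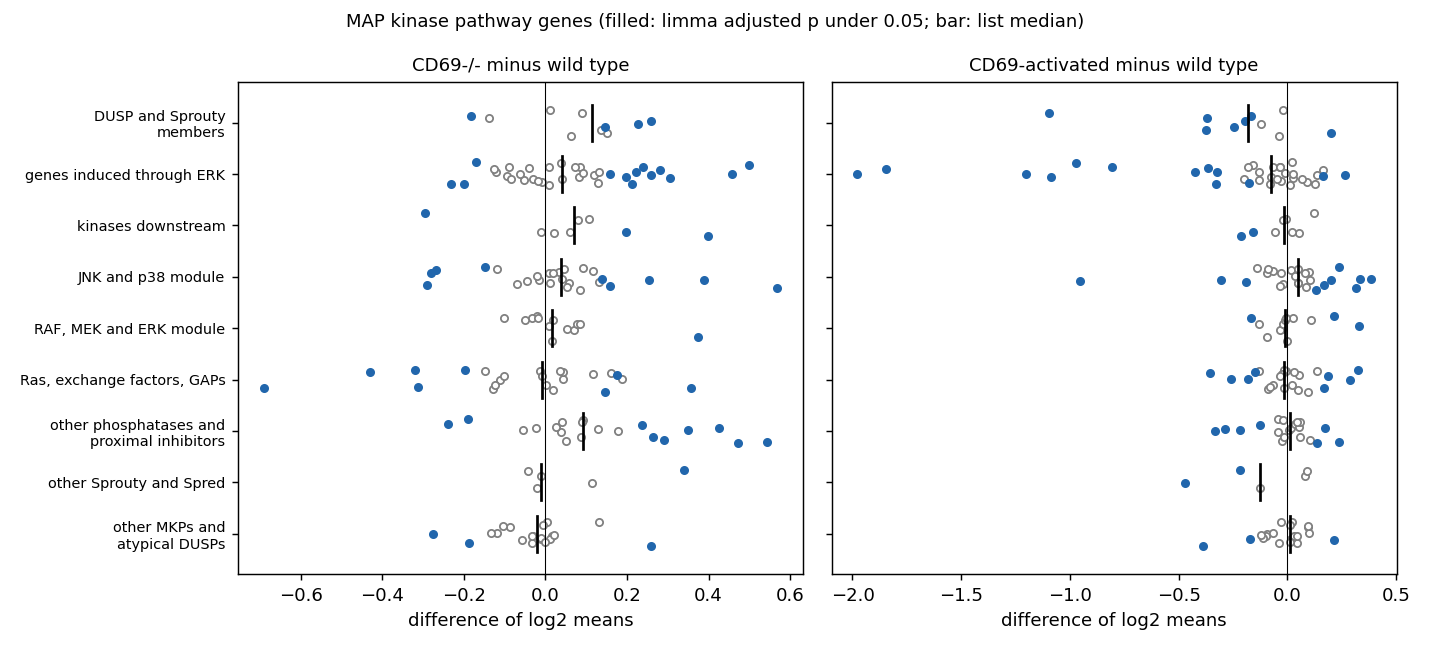
Difference of log2 means (horizontal axis, with different ranges) for genes of the MAP kinase pathway lists (rows) in CD69-/- minus wild-type cells (left) and CD69-activated minus wild-type cells (right); filled points had a limma adjusted p under 0.05 and bars are list medians. The median of the 10 DUSP and Sprouty genes lies at 0.11 on the left and -0.18 on the right.

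The genes most like each member over the 9 arrays were found by Pearson correlation of log2 values, as a description in which the 3 groups set most of the spread. Spry1 was closest to the proteasome subunit gene Psma6, the zinc finger gene Zbtb32 and Tfg (r = 0.996 for all 3). Dusp10 was closest to Gpr132 (0.995), the interleukin-12 receptor gene Il12rb2 (0.994) and the actin bundling gene Lcp1 (0.994). Dusp5 was closest to the splicing factor gene U2af1 (0.998), and Dusp4 to Fkbp5 (0.992), which encodes a chaperone of the glucocorticoid receptor. Dusp14 was closest to the interferon-induced gene Ifit3 (0.979), and Dusp2 to Tmem140 (0.982).

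Markers of other cells moved in the same arrays. In CD69-/- cells 9 of 10 measured CD4 T cell markers rose, with a mean log2 level per array of 11.92 to 11.95 against 11.46 to 11.55 in wild-type arrays. All 17 measured B cell markers fell, to a mean of 11.44 to 11.52 in CD69-/- arrays against 12.01 to 12.05 in wild-type arrays. Of 26 monocyte, macrophage and dendritic cell markers, 20 were lower and 0 higher, with means of 7.52 to 7.59 in CD69-/- arrays against 7.998 to 8.02 in wild-type arrays. In CD69-activated cells all 9 measured genes of dividing cells fell, to means of 8.61 to 8.70 against 9.58 to 9.67 in wild-type arrays. Of the 11 NK cell markers 9 fell in CD69-activated cells, and 4 rose and 5 fell in CD69-/- cells. Means of the NK cell markers were 8.04 to 8.08 in CD69-/-, 7.42 to 7.49 in CD69-activated and 8.11 to 8.15 in wild-type arrays. This set includes Prf1, Gzma and Nkg7, which cytotoxic T cells express too, so it is not specific to NK cells. Both CD8 T cell markers rose in CD69-/- cells and fell in CD69-activated cells, with means of 12.33 to 12.39 in CD69-/- arrays, 11.32 to 11.52 in CD69-activated arrays and 11.81 to 11.84 in wild-type arrays. Of 13 neutrophil markers 2 fell in CD69-/- cells, and 1 rose and 1 fell in CD69-activated cells. The 17 B cell markers split into 4 higher and 3 lower there, the 26 monocyte, macrophage and dendritic cell markers into 4 higher and 7 lower, and the CD4 T cell markers into none higher and 3 lower. Group means ran from 11.98 to 12.35 for Cd4, from 12.37 to 12.88 for Cd3e and from 10.73 to 11.87 for Cd8a. Such levels are not compared between genes. The part of these markers in the DUSP and Sprouty differences was not tested, and fewer cells of a type and less RNA per cell cannot be told apart in such samples.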

How the data were processed

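The deposited values are log2 expression values, which the authors computed by RMA, for which the submitters' processing notes name the oligo package and R 2.12.1. RMA combines background correction, quantile normalization and a median polish over probes, and tends to shrink large fold changes; the settings used were not stated.

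Of 35556 probe sets 21789 had 1 gene symbol, 1621 had several and 12146 had none, and 21698 had their gene ID in RefSeq's table (GRCm38.p6), which gave names and chromosomes. Each of 19938 genes was represented by its brightest probe set. The deposited log2 values entered limma 3.58.1 (R 4.3.3) unaltered, with 3 group means over 9 arrays, 6 residual and 4.78 prior degrees of freedom, and two-sided tests. The procedure was tested on simulated data.

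The members, the gene lists and the marker sets were chosen with earlier results of these data known. Named genes were all 10 members, Cd69, up to 4 called genes of each list with the largest difference in each comparison with wild type, and up to 3 genes most correlated with a member. Spry4, Xist, Eif2s3y, Cd4, Cd3e and Cd8a were named outside this rule. Alternatives numbered 20 and are given in the closing section. Plots used matplotlib 3.10.9 (Python 3.11.15).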

Additional observations from a re-analysis of the deposited data

How the results depend on the processing

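Of 600 values recomputed for single genes over 20 alternatives, 554 kept their direction and their side of the threshold, 25 no longer passed, 15 newly passed and 6 changed sign. A minimum of 1.5-fold left 0 of 10 genes in CD69-/- minus wild type, 1 (Spry1) in CD69-activated minus wild type and 1 (Spry1) in CD69-activated minus CD69-/-. It was the one alternative that moved a count of the 10 genes by over 1.5 times, and it also reduced all genes called to 230, 316 and 801, against 3018, 4742 and 8501. Without any 1 array the count lay between 3 and 6 for CD69-/- minus wild type, between 6 and 7 for CD69-activated minus wild type, and stayed at 6 for CD69-activated minus CD69-/-. The sign changes all concerned differences near 0 that never passed. Dusp1 after activation was at 0.0031 after cyclic loess and 0.0047 without CD69-activated replicate 1. Spry2 was at -0.0037 in CD69-/- without CD69-/- replicate 1 and at 0.00076 after activation without CD69-activated replicate 1. Dusp16 in CD69-activated minus CD69-/- was at -0.011 with centred arrays and -0.024 without CD69-activated replicate 3. Their cause was not tested. Without any 1 array, these differences ranged from 0.0047 to -0.071 for Dusp1 after activation, from -0.0037 to 0.028 for Spry2 in CD69-/- cells, from 0.00076 to -0.039 for Spry2 after activation and from -0.024 to 0.039 for Dusp16 in CD69-activated minus CD69-/-. Same-numbered arrays shared only a number (correlations of their deviations from group means between -0.24 and 0.14). With that number as a replicate block the counts were 3, 7 and 6: Dusp5 in CD69-/- cells no longer passed (adjusted p = 0.0649) and no other call changed. No detection calls were used, so how far each signal stood above background was not tested. With 3 arrays per group, the 95% intervals of the 10 genes show the precision of each difference. They are not adjusted for the number of genes tested, so an interval can leave out 0 without a call. That of Dusp2 in CD69-/- cells (0.049 to 0.255) is such a case.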
